A study of Mus musculus with 18 samples.

Results

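The genes described here are 42 mouse genes of the cell division cycle and of DNA replication, out of 19545 entries in the deposited table. They were chosen by name, as the proliferation mark Mki67, the replicative helicase, and the cyclins, kinases, motors and chromosome proteins of mitosis. Earlier results of these data were known when the choice was made. All 42 are in the table. Whole kidney RNA from ICR mice aged 10 weeks was sequenced in 18 libraries, 3 in each of 6 groups. The group control is labelled only so, and mice given AOS at 10 mg/kg are the group AOS. The group STZ received STZ, commonly streptozotocin, which kills the insulin-producing cells of the pancreas, and the group STZ+AOS received STZ and AOS at 10 mg/kg. The groups STZ+AOS-FMT and STZ+control-FMT received STZ and a transfer, where FMT usually means faecal microbiota transplantation. The first of them is labelled with AOS at 10 mg/kg as well. The words before FMT are taken here to name what the donors received. AOS is not spelled out, and the labels give no dose or route for STZ. The series was made to look at such transfers in kidneys damaged by STZ.

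A dividing cell copies its DNA once and then separates the copies. Cyclin D1 (Ccnd1) and the transcription factor E2f1 act at the start, the Mcm proteins form the ring that is loaded on DNA and unwinds it, and Pcna is the sliding clamp that holds the polymerases. Cdk1 with its B-type cyclins then drives mitosis, and the motors of the spindle and the contractile ring part the chromosomes and the cells. In the adult kidney most tubule cells rest, and they re-enter the cycle after injury. Mitotic genes are shut off in resting cells by a repressor complex bound at a promoter element named CHR, often beside CCAAT boxes bound by NF-Y, while many replication genes are controlled through E2F sites.

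The promoters of 36 of the 42 genes were in the RefSeq set of promoter sequences for GRCm38.p6, the assembly also known as mm10. Ccnd1, Mcm4, Ccna2, Aurkb, Kif20a and Tpx2 were not in it. The 250 bases before each start were searched on both strands for the letters CCAAT, called a CCAAT box here, for TTTGAA or TTCGAA (CHR), and for TTCCCGC or TTCGCGC or TTGCCGC or TTGGCGC (E2F). A CCAAT box was found in 29 of the 36 genes (80.6%) and in 37.5% of all 27025 genes with a promoter. CHR letters were found in 13 of the 36 (36.1%) and in 19.6% of all, and E2F letters in 9 of the 36 (25.0%) and in 9.01% of all. These shares describe letters and do not show that a factor binds there. The 4 promoters below belong to the genes with the smallest adjusted p-values among those that rose in STZ+AOS over AOS, 1 each from the mitotic kinases, the helicase, the spindle motors and the proteins of cytokinesis. Each line gives the 200 bases that end just before the RefSeq start, 5′ to 3′ on the strand of the gene, with every match in capitals.
Plk1: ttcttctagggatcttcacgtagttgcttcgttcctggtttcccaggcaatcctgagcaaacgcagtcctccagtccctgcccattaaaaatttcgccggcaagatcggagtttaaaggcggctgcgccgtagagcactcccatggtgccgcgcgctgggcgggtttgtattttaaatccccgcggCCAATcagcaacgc
Mcm7: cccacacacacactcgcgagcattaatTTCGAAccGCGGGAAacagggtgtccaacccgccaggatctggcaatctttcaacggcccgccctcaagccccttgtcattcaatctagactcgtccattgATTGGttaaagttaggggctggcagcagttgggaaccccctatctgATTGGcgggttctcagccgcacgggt
Kif23: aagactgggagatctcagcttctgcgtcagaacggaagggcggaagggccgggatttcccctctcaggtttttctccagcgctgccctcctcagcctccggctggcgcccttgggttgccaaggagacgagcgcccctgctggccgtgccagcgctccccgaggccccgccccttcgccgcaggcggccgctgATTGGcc
Racgap1: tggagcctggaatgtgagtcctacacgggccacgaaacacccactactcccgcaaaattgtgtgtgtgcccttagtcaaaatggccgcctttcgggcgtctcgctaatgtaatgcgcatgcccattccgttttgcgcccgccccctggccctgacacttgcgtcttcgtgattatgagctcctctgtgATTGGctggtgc

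The Plk1 stretch is chr7:122159235-122159434 on the plus strand, and its CCAAT box starts 14 bases before the start of the gene. The Mcm7 stretch is chr5:138171884-138172083 on the minus strand. It holds all 3 kinds of letters, with CCAAT boxes on the reverse strand at 72 and 26 bases before the start, TTCGAA at 173 and an E2F match at 165. The Kif23 stretch is chr9:61946800-61946999 on the minus strand, with a reverse CCAAT box 7 bases before the start. The Racgap1 stretch is chr15:99651657-99651856 on the minus strand, with a reverse CCAAT box 12 bases before the start. Distances are from the RefSeq start. It differs from the GENCODE start, which bounds the gene coordinates below, for Plk1, Kif23 and Mcm7, and the Mcm7 stretch lies within the GENCODE span of that gene. In these 4 promoters 0 matches overlapped one another. Of the 14 genes that rose in STZ+AOS over AOS and have a promoter in the set, 13 held a CCAAT box, 5 held CHR letters and 5 held E2F letters.

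Levels are in FPKM, that is, fragments or reads per kilobase of gene and scaled to the reads assigned in a library. Read totals were not in the table, so the depth, and with it the counting error of low values, is unknown. Most of these genes were near the floor of what whole kidney RNA shows. The mean over the 18 libraries was under 1 FPKM for 18 genes, from 1 to 10 FPKM for 21 and above 10 FPKM for 3, which were Ccnd1, Pcna and Mcm7. It ran from 0.144 FPKM for Bub1, a kinase of the spindle checkpoint, to 106 FPKM for Ccnd1. A gene was tested where 3 or more libraries reached 1 FPKM, and 33 of the 42 passed. The 9 that did not were Ccne1, Aurkb, Bub1, Bub1b, Cenpe, Cenpf, Kif11, Kif2c and Anln, so counts of tested genes below are not counts of the whole set. In whole tissue, more dividing cells and more RNA per cell cannot be told apart.

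Libraries of the same group differed widely, and results that rest on those that stand apart are given below with and without them. Each gene's log2(FPKM + 1) was set against its own mean over the 18 libraries, and the median over the 42 genes was taken in each library. It was -0.27 and -0.29 in controls 1 and 2 but 0.41 in control 3. It was between -0.35 and -0.32 in the 3 AOS libraries. It was -0.38 in STZ 1, 0.26 in STZ 2 and -0.09 in STZ 3. It was 0.32, 0.33 and -0.08 in STZ+AOS 1, 2 and 3, between 0.00 and 0.09 in the STZ+AOS-FMT libraries and between 0.13 and 0.26 in the STZ+control-FMT libraries. Controls 1 and 2, the AOS libraries and STZ 1 therefore formed the low end, and control 3 the high end. The same libraries formed the low end for all genes tested, with medians between -0.153 and -0.093. For all genes control 3 was at 0.141, and STZ+AOS 1 and 2 were at 0.243 and 0.15.

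Control 3 was the highest of the 3 controls for 39 of the 42 genes (92.9%), against 69.4% of all 12682 genes tested. STZ 2 was the highest STZ library for 33 of the 42 (78.6%, against 26.9% of all genes tested), and STZ 1 the lowest for 33 of the 42 (78.6%, against 62.7%). STZ+AOS 3 was the lowest of its group for 34 of the 42 (81.0%, against 49.4%). The median SD of log2(FPKM + 1) within a group was 0.417 in control and 0.390 in STZ for these genes, against 0.218 and 0.205 for all genes tested. In AOS it was 0.0904 against 0.0920. By group mean, AOS was the lowest group for 38 of the 42 genes, and STZ+AOS (19 genes) or STZ+control-FMT (17 genes) was most often the highest. The order of group means was not counted for all genes tested, and the AOS libraries lay at the low end for those as well. The counts of group order are therefore no result about these genes in particular.

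**Figure D1:**
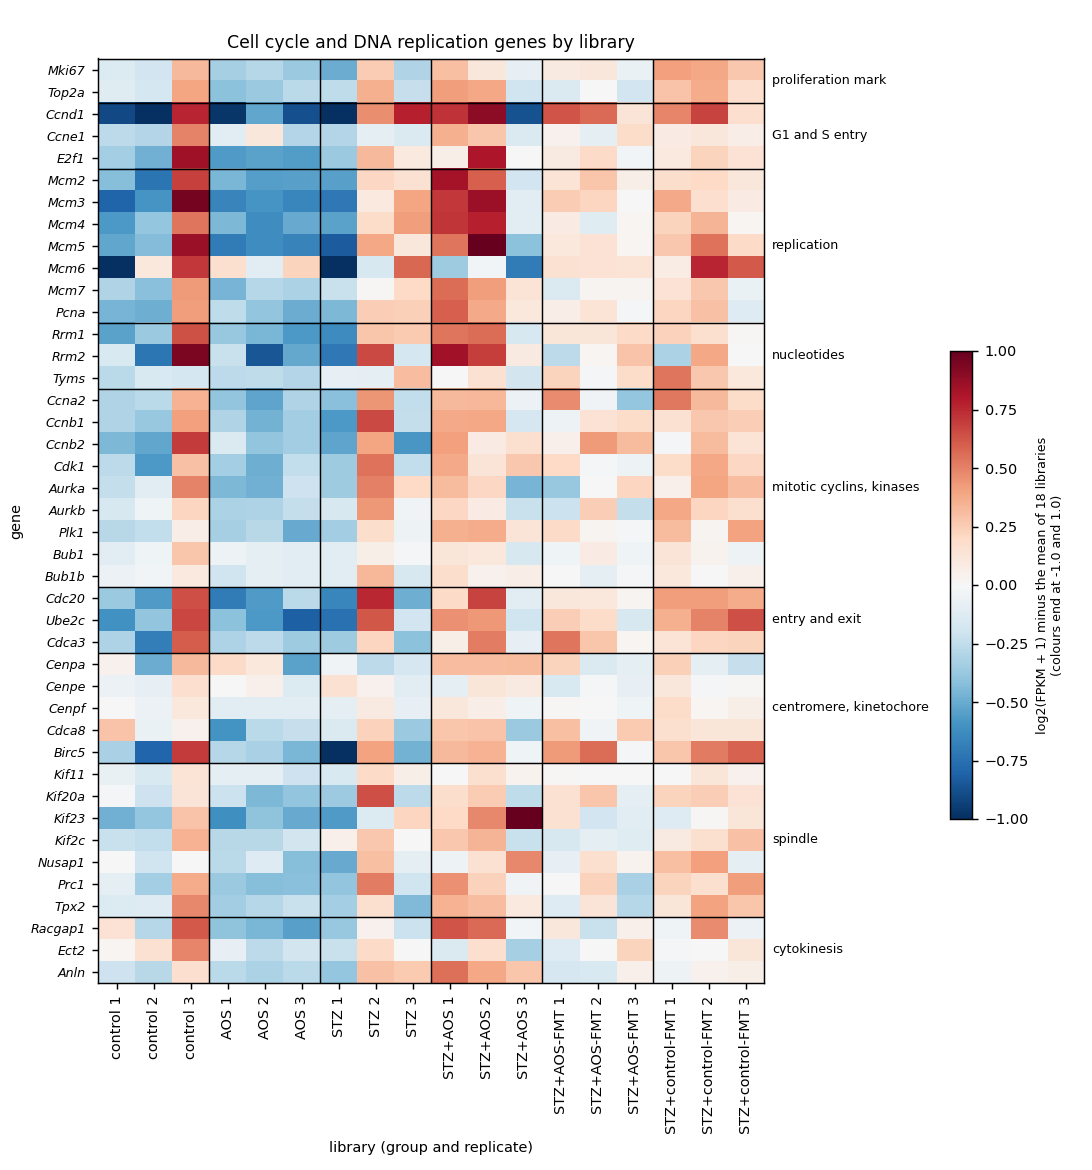
Each row is 1 of the 42 genes, grouped by role, and each column 1 of the 18 libraries, with replicates in the order 1, 2 and 3. Colour is log2(FPKM + 1) minus the gene's mean over the 18 libraries. Control 3 and STZ 2 stand out in red within groups that hold blue libraries, and the 3 AOS libraries are blue for most genes.

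Transcripts of other tissues also varied between libraries, but not always in step with the cell cycle genes. Cyp11b1, the enzyme that makes glucocorticoids in the adrenal cortex, was at 117.85 FPKM in control 3 and 0 in the other controls. It was at 316.12, 14.33 and 276.0 FPKM in STZ+AOS, at 0, 5.13 and 5.13 FPKM in STZ, and at 0.15 FPKM or less in AOS and both transfer groups. The summed level of 8 adrenal cortex genes ran from 118 to 2535 FPKM in STZ+AOS, from 1.64 to 922 in control and from 1.69 to 56.9 in STZ, and stayed at or under 2.52 FPKM in the other groups. The summed level of 4 spermatid genes was 26.1 to 37.1 FPKM in control and 18.2 to 74.3 FPKM in STZ, and at most 0.180 FPKM in the other groups. The 6 proximal tubule genes that mark the kidney summed to between 1921 and 4258 FPKM in every library, so the labelled tissue was present throughout. How far these other cells add to the levels of cell cycle genes was not tested.

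Ccnd1 (chr7:144929931-144939925, minus strand), the gene of the cyclin that opens G1, was the most abundant of the 42 and split the libraries into low and high ones. It was at 50.04, 43.09 and 159.94 FPKM in controls 1, 2 and 3 and at 47.44, 65.35 and 50.68 FPKM in AOS. It was at 46.11, 130.68 and 161.72 FPKM in STZ and at 156.25, 176.31 and 51.09 FPKM in STZ+AOS. It was at 146.27, 139.64 and 103.26 FPKM in STZ+AOS-FMT and at 132.26, 150.67 and 105.64 FPKM in STZ+control-FMT. The low libraries thus reached at most 65.35 FPKM and the high ones at least 103.26 FPKM, with both kinds inside control, STZ and STZ+AOS. E2f1, the transcription factor of S phase genes, had means of 2.07 ± 1.69 FPKM in control, 0.897 ± 0.0208 in AOS, 1.87 ± 0.676 in STZ and 2.51 ± 1.17 in STZ+AOS (SD, n = 3 each). Ccne1, the cyclin that acts with Cdk2 at S entry, did not exceed 0.98 FPKM in any library.

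Pcna (chr2:132249162-132253314, minus strand) was the most abundant of the replication genes. It was at 25.74, 25.23 and 48.25 FPKM in control and at 29.93, 27.02 and 25.19 FPKM in AOS. It was at 26.02, 42.75 and 42.42 FPKM in STZ and at 54.69, 46.84 and 38.70 FPKM in STZ+AOS. It was at 37.60, 39.48 and 35.60 FPKM in STZ+AOS-FMT and at 41.75, 44.25 and 32.70 FPKM in STZ+control-FMT. All 3 STZ+AOS libraries lay above all 3 AOS libraries, while control and STZ each held low and high libraries.

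Mcm7 (chr5:138164583-138172422, minus strand), a subunit of the helicase ring, was at 8.61, 7.87 and 14.93 FPKM in control, 7.60, 8.71 and 8.54 in AOS, 9.15, 10.98 and 12.59 in STZ, and 16.51, 14.84 and 12.06 in STZ+AOS. In STZ+AOS-FMT it was at 9.75, 11.11 and 11.09 FPKM and in STZ+control-FMT at 12.09, 13.31 and 10.36 FPKM. STZ+AOS and AOS did not overlap, and the means of the transfer groups lay between theirs. Exons of Mcm7 overlap those of Ap4m1 and Cops6 on the opposite strand, and no source used here says whether reads were counted by strand.

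Mcm2 (chr6:88883474-88898780, minus strand), another subunit of the ring, was at 3.58, 2.71 and 8.90 FPKM in control and at 3.49, 3.20 and 3.21 FPKM in AOS. It was at 3.23, 6.11 and 5.83 FPKM in STZ and at 9.94, 8.30 and 4.39 FPKM in STZ+AOS. In the transfer groups it was at 5.75, 6.46 and 5.40 FPKM with AOS donors and at 5.94, 6.05 and 5.65 FPKM with control donors. The transfer groups were tight and overlapped each other, and STZ+AOS spread over more than the whole of both.

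Mcm3 and Mcm4, also of the ring, likewise had their lowest mean in AOS and their highest in STZ+AOS. Mcm3 was at 0.81, 1.10 and 5.15 FPKM in control, 1.00, 1.10 and 1.01 in AOS, 0.93, 2.39 and 3.15 in STZ, and 4.16, 4.71 and 1.94 in STZ+AOS. It was at 2.76, 2.67 and 2.16 FPKM in STZ+AOS-FMT and at 3.10, 2.55 and 2.35 FPKM in STZ+control-FMT. Mcm4 was at 1.60, 1.96 and 4.62 FPKM in control, 1.84, 1.52 and 1.73 in AOS, 1.67, 3.41 and 4.18 in STZ, and 5.38, 5.63 and 2.61 in STZ+AOS. It was at 3.10, 2.56 and 2.92 FPKM in STZ+AOS-FMT and at 3.52, 3.92 and 2.92 FPKM in STZ+control-FMT. For both genes every AOS library lay under every STZ+AOS library and every transfer library.

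Mcm6 was the replication gene that departed from this. It was at 2.47, 7.64 and 12.16 FPKM in control, 7.98, 6.44 and 8.37 in AOS, 2.81, 6.22 and 10.97 in STZ, and 5.31, 6.88 and 3.96 in STZ+AOS. Its STZ+AOS mean of 5.38 ± 1.46 FPKM was the lowest of the 6 groups, against 7.60 ± 1.02 FPKM in AOS (SD, n = 3 each). Mcm5 ran from 0.79 to 5.41 FPKM over the 18 libraries. Of the genes of nucleotide supply, Tyms, which makes thymidylate, was the most even. It was at 6.92, 7.59 and 7.47 FPKM in control, 6.98, 7.01 and 6.81 in AOS, 8.05, 8.0 and 10.85 in STZ, and 8.52, 9.63 and 7.40 in STZ+AOS. It was at 10.17, 8.41 and 9.85 FPKM in STZ+AOS-FMT and at 12.85, 10.52 and 9.26 FPKM in STZ+control-FMT, the highest group. The ribonucleotide reductase genes Rrm1 and Rrm2 ran from 2.57 to 7.59 FPKM and from 0.81 to 5.30 FPKM.

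**Figure D2:**
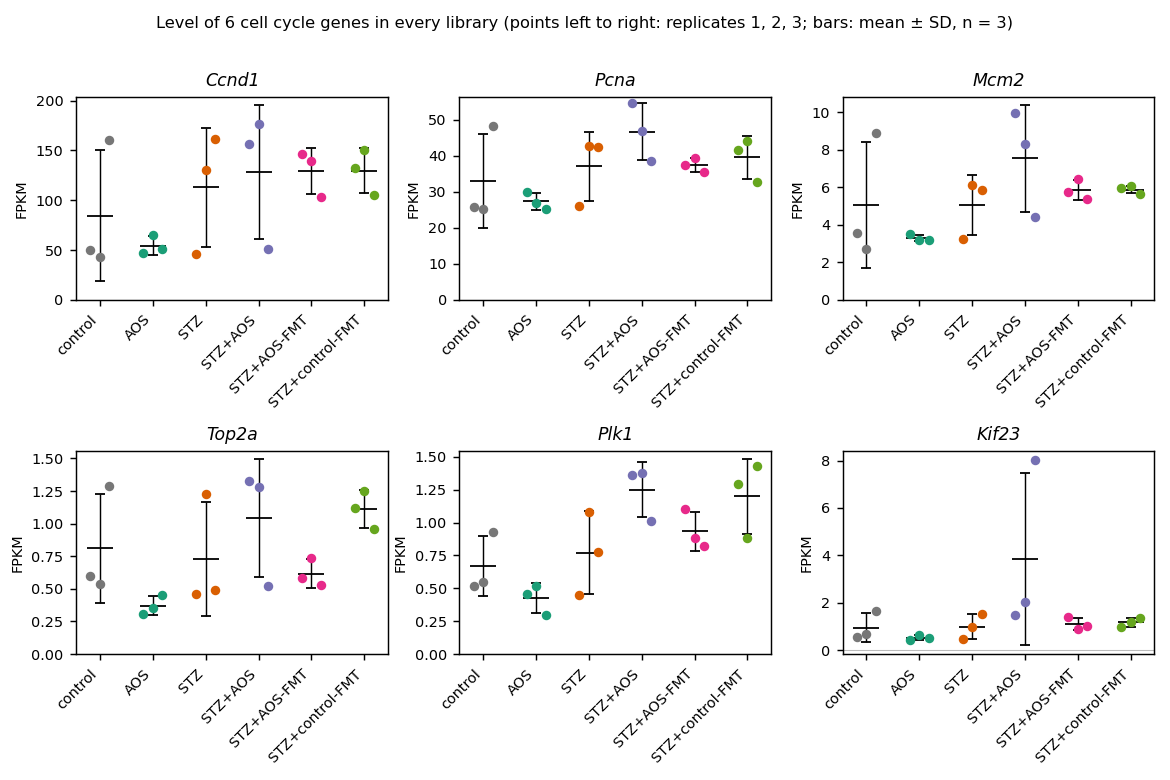
FPKM of Ccnd1, Pcna, Mcm2, Top2a, Plk1 and Kif23 in every library (points, replicates 1 to 3 from left to right), with the mean and SD of each group of 3. Control, STZ and STZ+AOS hold low and high libraries side by side for Ccnd1, and a single STZ+AOS library at 8.02 FPKM sets the mean of Kif23.

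Mitotic genes were low. STZ 2 was the highest of the 18 libraries for 9 genes, all of them mitotic, namely Ccnb1, Cdk1, Aurka, Aurkb, Bub1b, Cdc20, Kif11, Kif20a and Prc1. Mki67 (chr7:135689784-135716361, minus strand), the usual mark of cycling cells, was at 0.54, 0.49 and 1.13 FPKM in control and at 0.35, 0.39 and 0.31 FPKM in AOS. It was at 0.20, 1.02 and 0.38 FPKM in STZ and at 1.09, 0.84 and 0.60 FPKM in STZ+AOS. It was at 0.81, 0.84 and 0.62 FPKM in STZ+AOS-FMT and at 1.25, 1.22 and 1.04 FPKM in STZ+control-FMT. All 3 libraries with control donors lay above all 3 with AOS donors, and the AOS libraries lay below those of every group but STZ.

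Top2a (chr11:98992943-99024189, minus strand), the topoisomerase that untangles sister chromatids, was at 0.60, 0.54 and 1.29 FPKM in control, 0.31, 0.35 and 0.45 in AOS, 0.46, 1.23 and 0.49 in STZ, and 1.33, 1.28 and 0.52 in STZ+AOS. It was at 0.58, 0.74 and 0.53 FPKM with AOS donors and at 1.12, 1.25 and 0.96 FPKM with control donors. The donor groups again did not overlap. Ccnb1, the cyclin that activates Cdk1, was at 0.35, 0.28 and 1.21 FPKM in control, 0.35, 0.20 and 0.31 in AOS, 0.12, 1.63 and 0.41 in STZ, and 1.16, 1.17 and 0.48 in STZ+AOS. It was at 0.61, 0.84 and 0.89 FPKM in STZ+AOS-FMT and at 0.85, 1.01 and 0.97 FPKM in STZ+control-FMT. STZ 2 held the highest value of Ccnb1 and STZ 1 the lowest, so that STZ covered the whole range of the series.

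Cdk1, the kinase that starts mitosis, was at 0.45, 0.17 and 1.13 FPKM in control, 0.38, 0.24 and 0.47 in AOS, 0.36, 1.54 and 0.47 in STZ, and 1.26, 0.91 and 1.10 in STZ+AOS. It was at 1.00, 0.72 and 0.68 FPKM in STZ+AOS-FMT and at 0.98, 1.28 and 1.01 FPKM in STZ+control-FMT. Here all 3 STZ+AOS libraries were high, STZ+AOS 3 among them. Ccna2, the cyclin of S phase and mitotic entry, had the highest mean of the mitotic cyclins and kinases. It was at 0.89, 0.93 and 1.96 FPKM in control, 0.77, 0.62 and 0.89 in AOS, 0.74, 2.16 and 0.97 in STZ, and 1.91, 1.93 and 1.24 in STZ+AOS. It was at 2.23, 1.28 and 0.78 FPKM in STZ+AOS-FMT and at 2.36, 1.91 and 1.65 FPKM in STZ+control-FMT, so that both transfer groups overlapped STZ.

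Plk1 (chr7:122159439-122169873, plus strand), a kinase of mitotic entry and spindle assembly, was at 0.52, 0.55 and 0.93 FPKM in control, 0.46, 0.52 and 0.30 in AOS, 0.45, 1.08 and 0.78 in STZ, and 1.36, 1.38 and 1.01 in STZ+AOS. It was at 1.10, 0.88 and 0.82 FPKM in STZ+AOS-FMT and at 1.29, 0.88 and 1.43 FPKM in STZ+control-FMT. AOS lay below STZ+AOS and both transfer groups without overlap. The other mitotic kinases were lower or more mixed. Aurka ran from 0.41 to 1.78 FPKM and Aurkb from 0.19 to 1.00 FPKM, and the checkpoint kinases Bub1 and Bub1b stayed at or under 0.38 and 0.53 FPKM.

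Among genes of mitotic entry and exit, Ube2c, the ubiquitin carrier of the anaphase-promoting complex, had the highest mean. It was at 1.89, 2.35 and 5.97 FPKM in control, 2.31, 1.95 and 1.49 in AOS, 1.62, 5.74 and 2.84 in STZ, and 5.02, 4.94 and 2.83 in STZ+AOS. It was at 4.20, 4.0 and 2.93 FPKM with AOS donors and at 4.63, 5.20 and 5.85 FPKM with control donors, again without overlap. Its partner Cdc20, which activates the complex, was at 1.71, 1.70 and 1.56 FPKM with AOS donors and at 2.35, 2.36 and 2.24 FPKM with control donors. Cdca3, which promotes mitotic entry, ran from 0.81 to 3.46 FPKM over the 18 libraries.

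At the centromere and kinetochore, Birc5 (survivin), a subunit of the chromosomal passenger complex, had the highest mean. It was at 1.35, 0.70 and 3.78 FPKM in control, 1.41, 1.35 and 1.14 in AOS, 0.10, 2.90 and 1.12 in STZ, and 2.68, 2.75 and 1.85 in STZ+AOS. It was at 2.95, 3.33 and 1.92 FPKM in STZ+AOS-FMT and at 2.57, 3.21 and 3.42 FPKM in STZ+control-FMT. STZ 1 was the lowest library of the series and control 3 the highest. Cenpa, the histone of the centromere, was unusual in being even across STZ+AOS, at 1.60, 1.60 and 1.61 FPKM. The motor Cenpe (0.22 to 0.52 FPKM) and the kinetochore protein Cenpf (0.06 to 0.30 FPKM) were too low to test.

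Kif23 (chr9:61915905-61946774, minus strand), the motor subunit of centralspindlin at the cell midzone, gave the widest difference in the comparison of STZ+AOS with AOS. It was at 0.55, 0.66 and 1.64 FPKM in control, 0.42, 0.64 and 0.53 in AOS, 0.46, 0.97 and 1.51 in STZ, and 1.49, 2.03 and 8.02 in STZ+AOS. It was at 1.41, 0.90 and 1.00 FPKM in STZ+AOS-FMT and at 0.98, 1.19 and 1.36 FPKM in STZ+control-FMT. The value of 8.02 FPKM in STZ+AOS 3 stood alone. Racgap1 (chr15:99620496-99651656, minus strand), the other subunit of centralspindlin, was at 0.89 FPKM in that library, and STZ+AOS 1 and 2 had 1.98 and 1.85 FPKM of it.

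In the other groups Racgap1 was at 1.13, 0.58 and 1.95 FPKM in control, 0.46, 0.40 and 0.32 in AOS, 0.48, 0.98 and 0.66 in STZ, 1.08, 0.65 and 0.99 in STZ+AOS-FMT, and 0.87, 1.67 and 0.85 in STZ+control-FMT. The AOS libraries were the 3 lowest of the series. Ect2, the exchange factor that centralspindlin recruits to start cytokinesis, was at 1.10, 1.30 and 1.91 FPKM in control, 0.96, 0.73 and 0.82 in AOS, 0.78, 1.37 and 1.08 in STZ, and 0.87, 1.33 and 0.65 in STZ+AOS. It was at 0.90, 1.07 and 1.42 FPKM in STZ+AOS-FMT and at 1.05, 1.07 and 1.25 FPKM in STZ+control-FMT. It did not follow Racgap1: its lowest library of the series was STZ+AOS 3. The remaining spindle proteins Kif11, Kif20a, Kif2c, Nusap1, Prc1 and Tpx2 lay at or under 1.89 FPKM in every library.

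Across the whole design, an F test over the 6 groups asked whether any of the 33 tested genes differed. Log2(FPKM + 1) was fitted in limma with all 18 libraries, and a gene was called where its p, adjusted by Benjamini-Hochberg over the 12682 genes, was under 0.05. A p here sets the difference between groups against the spread within groups, estimated over all 18 libraries together. Separate mice are not stated for the replicates, so that spread could be technical. The F test called 0 of the 33 genes, where it called 0.647% of all genes tested. Unadjusted, 7 of the 33 had a p under 0.05, and 3942 genes did in all (31.1%). It called 11 of the 33 without control 3 (28.6% of all genes), and 18 of the 33 without control 3 and STZ 1 (42.6% of all genes). These libraries were singled out after their values were seen, so these counts are a description.

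STZ against control gave no call. 0 of the 33 genes passed, as did 0 of all 12682 genes (0%), with a smallest adjusted p of 1.000 in limma among these 33. 0 of the 33 had an unadjusted p under 0.05, against 161 genes in all. The 33 log2 differences had a median of 0.00, the same as all genes, and 17 were above 0. The comparison turns on which libraries stand in it. With control 3 and STZ 1 left out the median was 0.47 (all genes 0.16). The pair was singled out as the high control and the low STZ library, which fixes that direction, so no test of it is given. With STZ 2 alone left out the median was -0.25, so even its direction depended on 1 library.

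AOS against control gave lower values for 32 of the 33 genes and 0 calls (0.0710% of all genes were called). The median log2 difference was -0.35, against -0.09 for all genes. In limma 3 of the 33 had an unadjusted p under 0.05, where 521 of all genes did (4.11%). They were Racgap1, Ect2 and Cdca8, each with an adjusted p of 0.817. The AOS libraries lay below all 3 controls for 10 of the 33 genes (30.3%), against 10.2% of all genes tested. Without control 3 the median was -0.07. Control 3 is the control with high adrenal transcripts, and their part in this was not tested.

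AOS in mice given STZ was asked by STZ+AOS against STZ, which shares the STZ libraries with both transfer comparisons below. 0 of the 33 genes were called, where 4.53% of all genes were. 29 of the 33 were above 0, as were 73.6% of all genes. The median log2 difference was 0.34 against 0.19 for all genes. In limma 5 of the 33 reached an unadjusted p under 0.05, where 4200 of all genes did (33.1%). Kif23 came nearest to a call (1.08 ± 0.36, adjusted p = 0.0750). All 3 STZ+AOS libraries lay above all 3 STZ libraries for 1 of the 33 genes, Cenpa, and for 20.2% of all genes tested. Kif23 was called without STZ 3, where 26.5% of all genes were called. It was not called after quantile normalization (adjusted p = 0.196 in limma), with library weights (0.444) or with Cyp11b1 as a covariate (0.868).

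STZ+AOS against AOS, which asks for the effect of STZ in mice given AOS, was the comparison with calls among these genes. 16 of the 33 tested genes were called, all higher in STZ+AOS, but 46.5% of all genes tested were called too, 39.3% higher and 7.18% lower. The share called here, 48.5%, is thus close to the background, and the count is no result about these genes in particular. The log2 differences of the 33 had a median of 0.62, against 0.29 for all genes, and 30 of the 33 lay above the latter. The 3 libraries of STZ+AOS lay above the 3 of AOS for 27 of the 33 genes (81.8%), against 49.7% of all genes.

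By role the calls rest on few genes each, where 39.3% of all genes tested were called higher, and differences between roles were not tested. 6 of 7 replication genes, 2 of 3 genes of nucleotide supply and 2 of 6 mitotic cyclins and kinases rose. So did 3 of 5 spindle genes and 1 of 2 genes of cytokinesis. 1 of 2 proliferation marks (Top2a) and 1 of 2 regulators of S entry (E2f1) rose as well. None of the 3 genes of mitotic entry and exit or of the 3 centromere genes tested was called, at medians of 0.76 and 0.43. Plk1 rose by 0.66 ± 0.16 (log2 difference ± SE, adjusted p = 0.00815 in limma), Mcm7 by 0.73 ± 0.19 (0.00965) and Kif23 by 1.42 ± 0.36 (0.00995). Racgap1 rose by 0.86 ± 0.23 (0.0116), Mcm4 by 0.99 ± 0.29 (0.0166) and Pcna by 0.74 ± 0.23 (0.0200). Mcm2 rose by 0.93 ± 0.31 (0.0271) and Mcm3 by 1.12 ± 0.38 (0.0292). The other 8 called genes were E2f1, Tpx2, Top2a, Rrm1, Rrm2, Mcm5, Cdk1 and Prc1, with adjusted p-values from 0.0314 to 0.0400. Ccnd1, in spite of a difference of 1.04 ± 0.53, was not called (adjusted p = 0.115), and neither was Mki67 at 0.44 ± 0.18 (0.0602). Mcm6 was at -0.45 ± 0.42 (0.382).

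**Figure D3:**
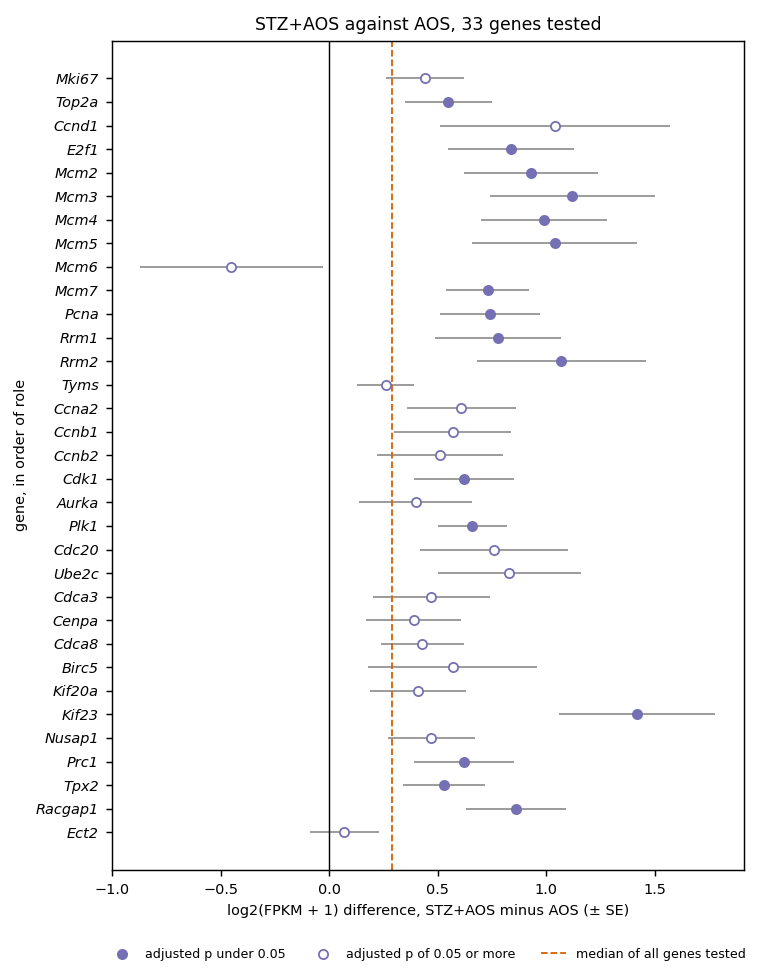
Log2(FPKM + 1) difference of STZ+AOS minus AOS for the 33 genes tested, with SE, in order of role. Filled points have an adjusted p under 0.05 (16 genes). The dashed line is the median of all genes tested, 0.29, and Mcm6, Tyms and Ect2 lie to its left.

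The number of calls moved with scaling and with single libraries. After quantile normalization, where the median of all genes was -0.03, 25 of the 33 were above 0 and 1 was called (Pcna, 0.58 ± 0.20, adjusted p = 0.0448), against 26.5% of all genes. After median-of-ratios rescaling 30 were above 0 and 5 were called, against 33.3% of all genes. With Cyp11b1 as a covariate 0 of the 33 and 0 of all genes were called, and the median was 0.08. Cyp11b1 was at 14.33 FPKM or more in STZ+AOS and at 0.15 FPKM or less in AOS. The covariate thus nearly repeats the comparison, and the SE of Plk1 rose from 0.16 to 0.23 with it. Adrenal content and group cannot be told apart by this fit. Without the 3 libraries with Cyp11b1 above 100 FPKM, which leaves STZ+AOS with 1 library taken to vary like the others, 8 of 32 genes were called, against 4.78% of all genes, at a median of 0.75. Leaving out 1 of the 6 libraries compared left 7, 4 or 5 calls without AOS 1, 2 or 3, and 5, 5 or 21 without STZ+AOS 1, 2 or 3. The share of all genes called is not given for these 6 fits, so the counts are no result about these genes in particular. The median stayed between 0.56 and 0.75 in them. With library weights 30 of the 33 were called, against 59.0% of all genes. Without control 3 and STZ 1, which are in neither group, 26 were, against 56.5%. That pair was chosen for its values, and leaving it out lowered the spread that the fit shares. The difference of Mcm2 stayed at 0.93 while its SE fell from 0.31 to 0.19, so the gain in calls is no support. The difference of Kif23 was 0.85 without STZ+AOS 3 and was still called.

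The test of the interaction asked whether AOS acted differently with STZ than without. 0 of the 33 genes were called (0% of all genes), with a smallest adjusted p of 0.0771 in limma, for Racgap1 at 1.20 ± 0.33. Unadjusted, 8 of the 33 genes had a p under 0.05, and 4240 of all genes did (33.4%). The median was 0.62, against 0.29 for all genes. Without STZ 3, Racgap1 and Kif23 were called, as were 24.1% of all genes. The interaction includes AOS against control, whose median shrank without control 3. Kif23 had its lone high value in STZ+AOS 3.

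The transfers were compared with STZ alone. In STZ+AOS-FMT 28 of the 33 genes were above STZ, with a median log2 difference of 0.14 (all genes 0.01), and 0 were called (0.110% of all genes). 0 of the 33 had an unadjusted p under 0.05, where 479 of all genes did. In STZ+control-FMT all 33 were above STZ, with a median of 0.28 (all genes 0.02), and 0 were called (0.103% of all genes). In limma 3 of the 33 had an unadjusted p under 0.05, Mki67 (0.54 ± 0.18), Tpx2 (0.47 ± 0.19) and Birc5 (0.96 ± 0.39), with adjusted p-values of 1.000. Of all genes, 281 had an unadjusted p under 0.05 in limma (2.22%). STZ 1 held the lowest value of each of Mki67 and Birc5.

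The donors were compared in STZ+AOS-FMT against STZ+control-FMT, 2 groups with little spread. 27 of the 33 genes were lower with AOS donors, with a median log2 difference of -0.15 (all genes -0.01). 0 of the 33 and 0 of all genes (0%) were called, and 0 of the 33 had an unadjusted p under 0.05 in limma, against 209 of all genes. The libraries of the donor groups did not overlap for 5 of the 33, all lower with AOS donors, namely Mki67, Top2a, Mcm5, Cdc20 and Ube2c, where 4.85% of all genes tested were lower without overlap. The summed level of 7 red cell genes was 5889 to 8102 FPKM with AOS donors and 7595 to 28087 FPKM with control donors, and that of 8 leukocyte genes 48.9 to 68.8 and 53.4 to 89.8 FPKM, both with overlap. Their part in the result was not tested.

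Further genes of the same pathways were counted in lists. In STZ+AOS against AOS 17 of 33 other replication genes rose and 1 fell, where 39.3% of all genes tested were called higher and 7.18% lower. Their median log2 difference was 0.51, against 0.29 for all genes. Dnmt1, which copies DNA methylation behind the fork, rose by 0.78 ± 0.16 (adjusted p = 0.00645 in limma), Fen1, the flap nuclease, by 0.86 ± 0.21 (0.00877) and Rfc3, of the clamp loader, by 0.91 ± 0.22 (0.00877). Of 19 other mitosis genes 8 rose, a share near that 39.3% of all genes, among them Tacc3 (0.83 ± 0.21), Gtse1 (1.13 ± 0.29) and the condensin subunit Smc4 (0.52 ± 0.14). Cks2, a small partner of Cdks, fell, with -0.51 ± 0.12 (0.00865).

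Cks2 also fell in STZ+AOS against STZ (-0.75 ± 0.12, adjusted p = 0.0178 in limma), from 60.58, 72.62 and 48.42 FPKM to 37.97, 37.30 and 30.41 FPKM. Dnmt1 rose in that comparison (0.65 ± 0.16, adjusted p = 0.0478), and these were the 2 list genes called in it. Of 10 other cyclins, Cdks and Cdc25 phosphatases, 6 rose in STZ+AOS over AOS (39.3% of all genes did), with Cdc25a, Cdk2, Cdc25b and Ccnd3 between 0.66 and 0.85. Of 7 transcription factors 3 rose, again near the share of all genes, namely Myc (2.21 ± 0.45) and the subunits Lin54 (0.56 ± 0.14) and Lin9 (0.45 ± 0.17) of the complex that binds CHR elements. In the 3 STZ+AOS libraries Myc had 20.69, 4.83 and 6.16 FPKM, against 1.52 FPKM or less in AOS.

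Of 19 tested genes that restrain the cycle, 12 rose and 1 fell in the same comparison, where 39.3% of all genes were called higher and 7.18% lower. The median log2 difference of the 19 was 0.80, against 0.29 for all genes. Cdkn1a (p21), the inhibitor of Cdks and of Pcna that p53 induces, was at 5.20, 3.73 and 4.62 FPKM in AOS and at 112.49, 75.97 and 155.07 FPKM in STZ+AOS. The log2 difference was 4.34 ± 0.80 (adjusted p = 0.00590 in limma). It was at 14.92, 7.11 and 82.60 FPKM in control and at 6.52, 62.49 and 80.12 FPKM in STZ. In the transfer groups it lay between 23.44 and 40.34 FPKM. The low libraries of Cdkn1a were controls 1 and 2, the AOS libraries and STZ 1. The same libraries formed the low end for the cell cycle genes and for all genes tested. STZ+AOS 3 was the highest library of Cdkn1a while lying below 0 for the median of the 42. Gadd45a rose by 1.02 ± 0.14 (0.00590) and Btg2, an antiproliferative gene, by 2.41 ± 0.55 (0.00740). Cdkn2c (p18), an inhibitor of Cdk4 and Cdk6, was at -0.62 ± 0.14 (0.00746).

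**Figure D4:**
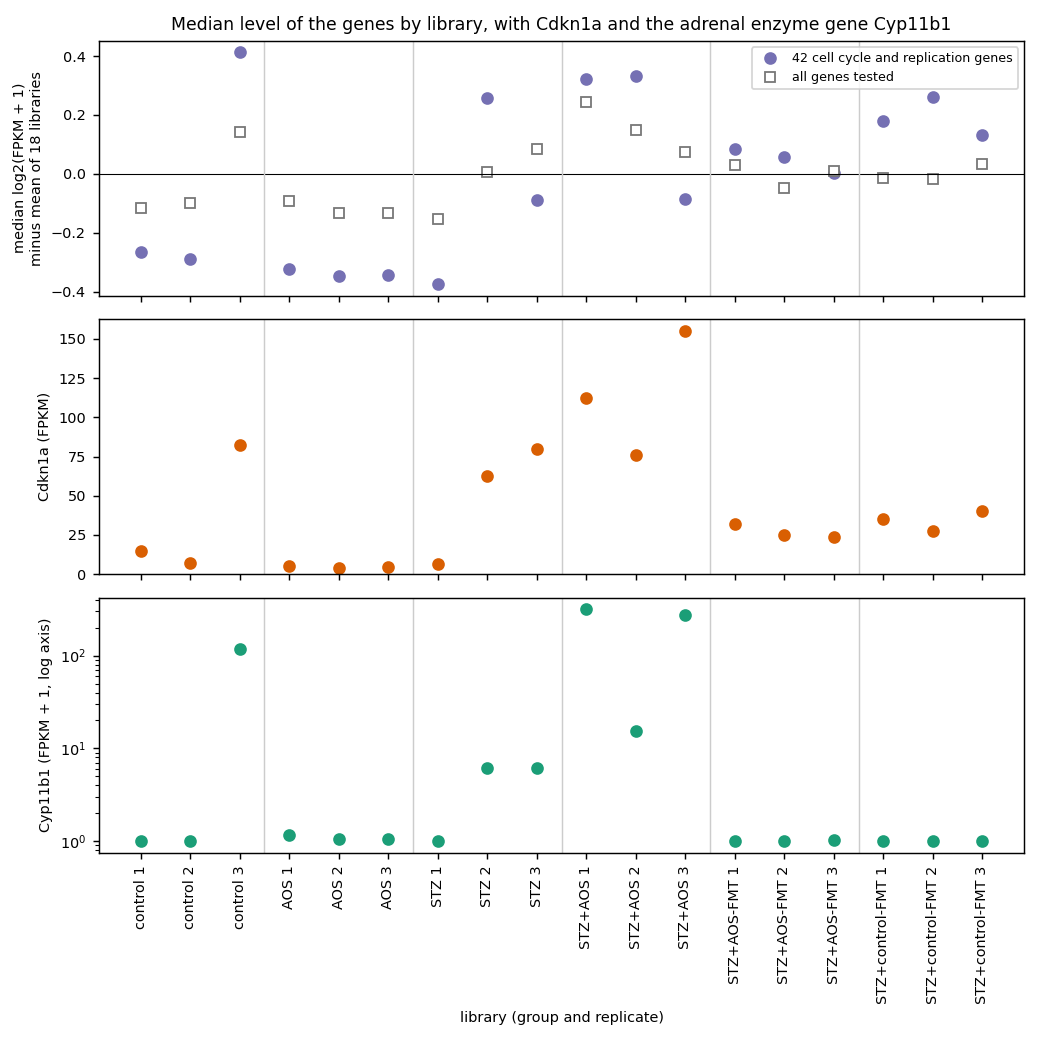
For each of the 18 libraries, the top panel gives the median over the 42 genes (filled) and over all genes tested (open) of log2(FPKM + 1) minus each gene's mean. The middle and bottom panels give Cdkn1a in FPKM and Cyp11b1 as FPKM + 1 on a log axis. Control 3 is high in all 3 panels, while STZ+AOS 3 is high for Cdkn1a and Cyp11b1 and below 0 for the 42 genes.

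Markers of tubule injury and of other cells moved with STZ+AOS as well. Havcr1 (Kim-1), an injury protein of the proximal tubule, had 423.13, 31.98 and 7.45 FPKM in STZ+AOS against 1.63 to 2.27 FPKM in AOS. Lcn2 was at 772.41, 62.81 and 27.19 FPKM against 2.06 to 3.57 FPKM. The library with the most Havcr1 and Lcn2, STZ+AOS 1, was the highest of the 18 for 6 of the 42 cell cycle genes. Control 3, with 19.36 FPKM of Havcr1, was the highest for 15 and STZ 2, with 5.87 FPKM, for 9. The highest library was not counted for all genes tested, so these counts are no result about these genes in particular. Whether they go with injury was not tested. The summed level of 8 leukocyte genes was 51.2 to 137 FPKM in STZ+AOS and 30.6 to 52.4 FPKM in AOS, that of 5 endothelial genes 116 to 152 against 60.3 to 77.1 FPKM, and that of 6 fibroblast genes 126 to 193 against 52.8 to 76.0 FPKM. The 6 proximal tubule genes summed to 1921 to 2715 FPKM in STZ+AOS and 3749 to 4006 FPKM in AOS. Which of these cells held the cell cycle transcripts was not tested.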

How the data were processed

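Total RNA of frozen kidney was sequenced by standard Illumina protocols, per the labels. Bowtie 0.12.2 and mm10 are named in the submitters' processing notes. No source used here gives the counting tool, annotation, strand setting or filters. The deposited values, made by the authors, are taken as FPKM from the values themselves, since neither labels nor header state a unit: values times gene length sum to nearly the same in each library. Depth is unknown, and no count model was used. All columns matched a sample, and 0 of the library pairs were identical.

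Genes that reached 1 FPKM in 3 or more libraries (12682 of 19545 entries) were put on the scale of log2(FPKM + 1), where the pseudocount of 1 understates changes of low genes. A group-means model over all 18 libraries was fitted with limma 3.58.1 in R 4.3.3, with trend and robust options, with Benjamini-Hochberg adjustment and a threshold of 0.05. The fit was tested on simulated data. The genes, lists and rules were chosen with earlier results of these data known. Named in full were the 8 genes with the smallest adjusted p in a comparison, Mki67, Top2a, Cdk1, Ccnb1, Mcm2, Pcna, Ccnd1 and the gene of each role with the highest mean. From the pathway lists at most 4 called genes a comparison were named, and Cdkn1a. Mcm6, Cdc20, Cenpa and the injury and adrenal markers were named after their values were seen. Gene coordinates are from GENCODE M21 (mm10), promoters from RefSeq.

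The alternatives were median-of-ratios rescaling, quantile normalization, no filter or a mean of at least 5 FPKM, pseudocounts of 0.1 and 5, limma without trend and robust, library weights, the replicate block, Cyp11b1 as a covariate, the groups compared alone, and libraries left out. The values of 1 gene counted in the lists are not reported here.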

Additional observations from a re-analysis of the deposited data

How the results depend on the processing

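The counts in this section stand without the share of all genes called, so they show only how the calls moved. Leaving out 1 library at a time gave 4 to 21 called genes in STZ+AOS against AOS (16 with all) and 0 to 1 in STZ+AOS against STZ. It gave 0 to 2 for the interaction and 0 to 11 in the F test over the 6 groups. In STZ+AOS against AOS the count was 1 after quantile normalization, 5 after median-of-ratios rescaling, 3 with a mean of at least 5 FPKM (6 genes tested), 30 with library weights, 26 without control 3 and STZ 1, 8 without the libraries with Cyp11b1 above 100 FPKM and 0 with Cyp11b1 as a covariate, where Cdk1 turned to -0.03. Cyp11b1 separated STZ+AOS from AOS without overlap, so the fit with that covariate can hardly tell it from the comparison. The F test called 30 genes with library weights and 18 without control 3 and STZ 1, a pair chosen for its values. The calls in STZ against control moved without that pair as well. The choice of the pair fixed the direction there, so that count is not given, and neither result is support for a difference. With the replicate block, STZ+AOS against STZ called 1 gene (Kif23) and STZ+AOS against AOS 14. Same-numbered libraries deviated together (r over 0.1) in 7 of 21 pairs, from -0.258 to 0.667, and 9 of 18 libraries correlated best with their own number. These mixed values do not settle whether the numbers pair the samples. The other 166 recomputed counts stayed within 1.5 times their value with all libraries. Of the medians 134 stayed within the spread between replicates and 23 moved, 714 counts of pathway genes stayed and 71 moved, and of the called genes 175 values stayed past the threshold and 109 fell short of it. The cause was not tested. Groups of 3 and an unknown depth limit all values, those under 1 FPKM most.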
